A study of Homo sapiens with 9 samples.

Results

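IL11 and LIF are genes of secreted cytokines of the interleukin-6 family, and their transcripts were followed over all 9 arrays of a study of GPR39, a zinc-sensing receptor, in the human embryonic kidney line HEK293. The probe sets were those whose platform annotation names IL11 or LIF, which gave 1 probe set for each gene, 2 of the 53617 probe sets on the array. Both genes were picked with their changes in these arrays already known, so their own levels and changes are given as a description, without a test.

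Each group had 3 arrays. The agonist group had the GPR39 overexpression label and was given TC-G-1008, a synthetic agonist of that receptor, at 1 uM. The GPR39 group carried the same receptor label and received cumate, the inducer of a class of engineered promoters, at 0.03 mg/mL. The mock group was naive HEK293 cells labelled as without cumate, and all cells were kept in DMEM with 10% serum. The labels used here do not give cumate for the agonist group, an exposure time, the promoter of the receptor gene, or whether the cells were 1 clone. They call the replicates biological and do not mention separate cultures, so the p-values rest on array-to-array spread, which may be technical. No group had cumate or agonist without the receptor label, so the receptor and cumate cannot be told apart in GPR39 against mock, nor the agonist and a possible lack of cumate in agonist against GPR39.

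Cytokines of this family act through the shared receptor chain gp130, encoded by IL6ST. IL-11 binds its own receptor chain, IL11RA, before gp130 joins, and LIF brings gp130 together with LIFR. The assembled receptors activate JAK kinases and the transcription factor STAT3, and SOCS3, itself a STAT3 target, shuts the receptor off. IL-11 is known for its part in bone turnover, implantation and fibrosis, and LIF for keeping mouse embryonic stem cells undifferentiated and, in the rat kidney, for turning mesenchyme into nephron epithelium.

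Array medians lay between 3.13 and 3.22 on the log2 scale, and replicates of a group correlated at a mean of 0.985 to 0.990 over all probe sets. For mock replicate 1 the mean correlation was 0.988 with GPR39 arrays and 0.985 within its own group. The GPR39 probe set read 2.58 ± 0.11 in the agonist arrays, 2.58 ± 0.04 in the GPR39 arrays and 2.47 ± 0.07 in the mock arrays (SD, n = 3 each), too dim to be tested, and the position of its probes is unknown here, so the receptor label could not be checked with it. Of 10 kidney, neuronal and keratin genes used as HEK293 markers, 7 were measured and all 7 were above the filter on dim values. Their summed linear signal ran from 1240 to 1617 in the agonist arrays, from 1415 to 1438 in the GPR39 arrays and from 2110 to 2177 in the mock arrays. IRS4, the brightest of them, made up most of that sum. It was the 1 of 7 that passed in GPR39 against mock, 14.3% beside 1.64% of named genes, with a difference of -1.03 ± 0.14 (SE, limma adjusted p = 0.016). KRT18, EYA1 and WT1 differed by 0.27, 0.18 and 0.13 there, and PAX2, VIM and KRT8 by -0.33, -0.29 and -0.22. In agonist against mock KRT18 rose and 3, IRS4, EYA1 and VIM, fell, 57.1% beside 21.8% of named genes. EYA1 was the 1 that passed in agonist against GPR39, with -0.82 ± 0.08 (SE, adjusted p = 0.00099).

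The promoter of IL11 is shown because AP-1 is a known activator of IL11 and genes of its subunits passed the test in these arrays. The AP-1 motif was therefore picked with those results known, and a part of AP-1 in the IL11 levels was not tested. The 250 bases before the start of the gene, from RefSeq, build GRCh38.p14, chr19:55370464-55370713, minus strand, read 5′ to 3′ with the AP-1 motif in capitals.
IL11 promoter: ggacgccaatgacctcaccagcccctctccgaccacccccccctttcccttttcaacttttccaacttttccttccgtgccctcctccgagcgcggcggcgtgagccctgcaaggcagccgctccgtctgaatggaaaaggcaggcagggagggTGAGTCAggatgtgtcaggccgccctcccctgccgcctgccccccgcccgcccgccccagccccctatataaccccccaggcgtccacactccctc
Both strands were searched. The AP-1 motif TGANTCA matched once, 96 to 90 bases before the start, and 6.57% of 35116 promoter windows of the same length held it. A TATA box motif, TATANAA, matched 31 to 25 bases before the start and was held by 8.41% of windows, and the 2 matches do not overlap. The motifs TGACGTCA (CRE), TTCNNNGAA (STAT), GCGNGGGCG (EGR) and CATTCC (TEAD) had no match in this window, and 1.65%, 6.57%, 8.41% and 11.9% of windows held them.

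IL11 was highest in the agonist arrays, at 7.39, 7.18 and 7.43 on the log2 scale, with 5.19, 5.29 and 5.02 in the GPR39 arrays and 4.85, 4.39 and 4.14 in the mock arrays. The 3 groups did not overlap: the lowest agonist array lay 1.89 above the highest GPR39 array, and the lowest GPR39 array only 0.17 above mock replicate 1, the highest mock array. The means were 7.34 ± 0.13 in agonist, 5.17 ± 0.14 in GPR39 and 4.46 ± 0.36 in mock (SD, n = 3 each). The difference was 2.17 ± 0.17 for agonist minus GPR39, 0.70 ± 0.17 for GPR39 minus mock and 2.87 ± 0.17 for agonist minus mock (log2, SE of the fit over all arrays), which are 4.51-fold, 1.63-fold and 7.33-fold. The agonist minus GPR39 difference made up 75.6% of the whole log2 difference between agonist and mock, and GPR39 minus mock 24.4%. Among 11916 named genes tested, IL11 had the 13th largest rise in agonist against GPR39, the 84th in GPR39 against mock and the 10th in agonist against mock. Without mock replicate 1, the array that resembled the GPR39 arrays, the mock mean was 4.27 and GPR39 minus mock was 0.90.

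LIF read 4.96, 4.97 and 4.80 in the agonist arrays, 4.75, 4.67 and 4.69 in the GPR39 arrays and 4.12, 4.01 and 4.15 in the mock arrays. Mock stood well apart, with a gap of 0.52 between the lowest GPR39 array and the highest mock array, while the agonist and GPR39 arrays were separated by only 0.06, less than the SD of the agonist arrays. The means were 4.91 ± 0.09 in agonist, 4.70 ± 0.04 in GPR39 and 4.09 ± 0.07 in mock (SD, n = 3 each). The difference was 0.21 ± 0.07 for agonist minus GPR39, 0.61 ± 0.07 for GPR39 minus mock and 0.82 ± 0.07 for agonist minus mock (log2, SE), which are 1.15-fold, 1.53-fold and 1.76-fold. For LIF it was the difference between GPR39 and mock that made up most of the whole, 74.6%, with 25.4% between agonist and GPR39. LIF had the 1628th largest rise in agonist against GPR39, the 108th in GPR39 against mock and the 201st in agonist against mock. Both genes therefore had the same order of groups, agonist above GPR39 above mock, with the larger step in a different place. Every array of both genes was above the 40th percentile of its array, the filter used for dim probe sets.

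**Figure D1:**
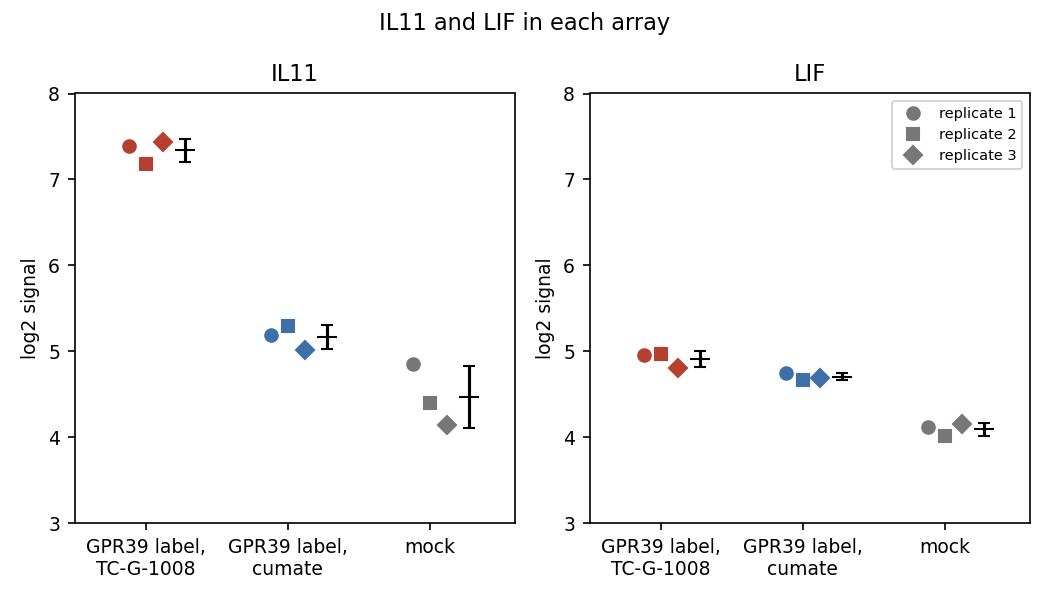
Log2 signal (y axis) of IL11 and LIF in each of the 9 arrays, by group (x axis); symbols mark the replicate, and the bar beside each group is the mean with its SD (n = 3). IL11 stands at 7.18 to 7.43 in the agonist arrays, above all other arrays, the highest of which reads 5.29, while LIF in the mock arrays, at 4.01 to 4.15, lies under all GPR39 and agonist arrays.

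Bulk RNA was measured, so fewer cells making a transcript and less RNA per cell cannot be told apart. IL-11 and LIF are made by fibroblasts in many tissues, and 3 of 8 fibroblast markers were measured. DCN and LUM, which encode matrix proteoglycans, were at or below the 40th percentile in every array. THY1 was above it in every array, averaging 3.43 in agonist, 3.22 in GPR39 and 3.31 in mock. Its agonist arrays lay above the GPR39 arrays, by 0.21 ± 0.07 on average, which did not pass (SE, limma adjusted p = 0.11). The summed linear signal of the 3 was 17.5 to 18.3 in agonist, 16.3 to 16.9 in GPR39 and 16.6 to 17.5 in mock. The 4 measured of 7 leukocyte markers summed to 242 to 281 in agonist, 214 to 218 in GPR39 and 108 to 135 in mock. This is the same order of groups as for IL11 and LIF. That sum was mostly CD68, a lysosomal glycoprotein gene, and CD14, LAPTM5 and TYROBP together gave 26.4 to 29.4 in agonist, 23.8 to 29.9 in GPR39 and 22.3 to 23.2 in mock. Of these, CD14 averaged 2.85 in agonist, 2.77 in GPR39 and 2.76 in mock, and LAPTM5 3.20, 3.26 and 3.10 in that order. TYROBP averaged 3.53 in agonist, 3.34 in GPR39 and 2.85 in mock, and its GPR39 and mock arrays overlapped. It did not pass (limma adjusted p = 0.66 for agonist minus GPR39, 0.33 for GPR39 minus mock and 0.072 for agonist minus mock). The endothelial markers summed to 18.2 to 18.9 in agonist, 17.7 to 20.3 in GPR39 and 17.4 to 18.9 in mock (3 measured of 5), and the hepatocyte markers to 49.0 to 61.0 in agonist, 47.9 to 57.3 in GPR39 and 46.5 to 56.0 in mock (4 of 4). The part of any of these markers in the levels of IL11 and LIF was not tested.

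The other genes of the gp130 pathway were followed in 5 lists, of ligands, receptors, signalling genes, restraining genes and STAT3 targets, which hold neither IL11 nor LIF. Of their 78 genes, 52 had a named probe set and 42 were bright enough to test, and a gene passed at a limma adjusted p of 0.05. In agonist against GPR39, 7 rose and 1 fell, 19.0% of the 42, and 13.3% of all 11916 named genes passed. Of all 33376 probe sets 9.06% passed, 3.12% higher and 5.95% lower. In GPR39 against mock 1 of 42 rose, 2.38%, beside 1.64% of named genes and 1.17% of probe sets, 0.749% higher and 0.422% lower. In agonist against mock 12 rose and 1 fell, 31.0%, beside 21.8% of named genes and 15.0% of probe sets, 6.11% higher and 8.94% lower. The median log2 change of the lists was 0.07, 0.09 and 0.11 in the 3 comparisons in that order, where all named genes had -0.03, 0.02 and -0.01. By direction, 16.7% of the 42 were higher and 2.38% lower in agonist against GPR39, beside 3.64% and 9.68% of named genes, and 28.6% were higher and 2.38% lower in agonist against mock, beside 7.82% and 14.0% of named genes. The difference from all genes was not tested, and most of the genes that passed were in the list of STAT3 targets. The lists were chosen with earlier results of these data known, so these shares are a description. Without GPR39 replicates 1, 2 and 3 the count in agonist against GPR39 was 5, 4 and 4, and without mock replicate 1 the count in GPR39 against mock was 4.

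Few of the other ligand genes of the family could be tested. Of 9 other ligand genes listed, 5 had a named probe set and 4 were bright enough to test: OSM, encoding oncostatin M, CTF1, encoding cardiotrophin-1, and IL27 and EBI3, the subunits of interleukin-27. None of the 4 passed in limma in any of the comparisons, and none had an unadjusted p under 0.05. OSM, the gene next to LIF on its chromosome, read 3.41, 3.0 and 3.29 in agonist, 3.20, 3.20 and 3.17 in GPR39 and 3.28, 2.98 and 2.97 in mock. Its groups overlapped throughout, and its difference was 0.11 ± 0.12 for GPR39 minus mock (SE; 95% interval from -0.17 to 0.40) and 0.16 ± 0.12 for agonist minus mock (95% interval from -0.13 to 0.44). CTF1 averaged 4.30 in agonist, 4.37 in GPR39 and 4.21 in mock, and its agonist minus mock difference was 0.08 (95% interval from -0.20 to 0.37). IL27 differed by 0.11 between agonist and mock (95% interval from -0.05 to 0.27). EBI3 was uneven, with GPR39 replicate 1 at 2.92 and the other 8 arrays between 3.48 and 3.80. IL31, encoding a cytokine of itch, was at or below the 40th percentile in all arrays. The rest of the list, IL6, CNTF and CLCF1 among them, was not analysed here.

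The receptor genes were measured for LIF better than for IL11, since IL11RA and IL6ST have no named probe set and were not analysed here. LIFR, the ligand-binding partner of gp130 for LIF, read 7.81, 7.80 and 7.54 in agonist, 7.85, 7.85 and 8.02 in GPR39 and 7.72, 7.84 and 7.84 in mock. Its differences were -0.19 ± 0.10 for agonist minus GPR39 (SE; 95% interval from -0.41 to 0.03) and -0.08 ± 0.10 for agonist minus mock (95% interval from -0.31 to 0.14), and it did not pass in any comparison. IL6R, the interleukin-6 receptor chain, read 6.29, 6.52 and 6.43 in agonist, 6.29, 6.33 and 6.29 in GPR39 and 6.01, 5.57 and 5.77 in mock. Its mock arrays lay below all others, and it rose by 0.63 ± 0.11 in agonist against mock (SE, limma adjusted p = 0.0077), while GPR39 minus mock, at 0.53 ± 0.11, did not pass (adjusted p = 0.084). OSMR, the oncostatin M receptor chain, also had its mock arrays below all others, with 6.90 ± 0.07 in agonist, 7.04 ± 0.16 in GPR39 and 6.59 ± 0.13 in mock (SD, n = 3 each), and did not pass (adjusted p = 0.097 for GPR39 minus mock and 0.087 for agonist minus mock, limma). CNTFR, the receptor chain of ciliary neurotrophic factor, differed by 0.28 between agonist and mock (95% interval from -0.12 to 0.69). IL31RA was at or below the 40th percentile in all arrays. Of the 4 receptor genes tested, 0, 2 and 2 had an unadjusted p under 0.05 in agonist against GPR39, GPR39 against mock and agonist against mock.

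Inside the cell, 1 gene among the kinases, adaptors and STATs below gp130 passed. Of 12 signalling genes tested, of 15 listed, 1 rose and none fell in agonist against GPR39, 8.33% beside 13.3% of named genes (3.64% higher). None passed in GPR39 against mock, where 1, the JAK kinase gene TYK2, had an unadjusted p under 0.05. TYK2 differed by -0.23 there (95% interval from -0.38 to -0.08) and by -0.22 in agonist against mock (limma adjusted p = 0.058). The gene that rose over GPR39 also rose in agonist against mock, 8.33% beside 21.8% (7.82% higher), where 3 of the 12 had an unadjusted p under 0.05. STAT3, the main transcription factor of the pathway, read 8.42, 8.50 and 8.48 in agonist, 8.58, 8.59 and 8.47 in GPR39 and 8.50, 8.48 and 8.37 in mock, and its agonist minus mock difference was 0.02 (95% interval from -0.14 to 0.18). JAK1, a kinase bound to gp130, differed by -0.09 between agonist and mock (95% interval from -0.26 to 0.08). The gene that rose was STAT5A, a STAT of growth hormone and prolactin signalling, at 3.38, 3.34 and 3.67 in agonist, 3.06, 2.74 and 2.96 in GPR39 and 2.90, 3.06 and 3.06 in mock. Its rise was 0.55 ± 0.12 over GPR39 and 0.46 ± 0.12 over mock (SE; limma adjusted p = 0.026 and 0.035). It no longer passed against GPR39 without GPR39 replicate 2 or 3 or agonist replicate 1 or 3 (adjusted p up to 0.088), nor against mock without any 1 mock array or agonist replicate 1 or 3 (adjusted p up to 0.089).

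Genes that restrain the pathway were tested for 8 of 16 listed. In agonist against GPR39 1 rose and none fell, 12.5% beside 13.3% of named genes (3.64% higher). In agonist against mock 2 rose and none fell, 25% beside 21.8% (7.82% higher). SOCS3, the direct feedback inhibitor of gp130, read 4.90, 4.78 and 4.86 in agonist, 4.64, 4.73 and 4.25 in GPR39 and 4.29, 4.64 and 4.24 in mock. The agonist arrays lay above all others, but the difference of 0.31 ± 0.15 from GPR39 and of 0.46 ± 0.15 from mock did not pass (SE; limma adjusted p = 0.26 and 0.079). A further SOCS3 probe set was too dim to test, with means of 2.31 in agonist, 2.34 in GPR39 and 1.91 in mock. SOCS4, a family member known for acting on the epidermal growth factor receptor, rose by 0.38 ± 0.09 in agonist against GPR39 (SE, adjusted p = 0.033) and by 0.58 ± 0.09 against mock (adjusted p = 0.0034). The first of these calls was lost without any 1 GPR39 array or agonist replicate 1 or 2 (adjusted p up to 0.108). SOCS7 rose by 0.33 ± 0.08 in agonist against mock (SE, adjusted p = 0.027), and this call was lost without any 1 mock array or agonist replicate 2 or 3 (adjusted p up to 0.076). In GPR39 against mock none of the 8 passed, beside 1.64% of named genes, and 1 had an unadjusted p under 0.05.

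**Figure D2:**
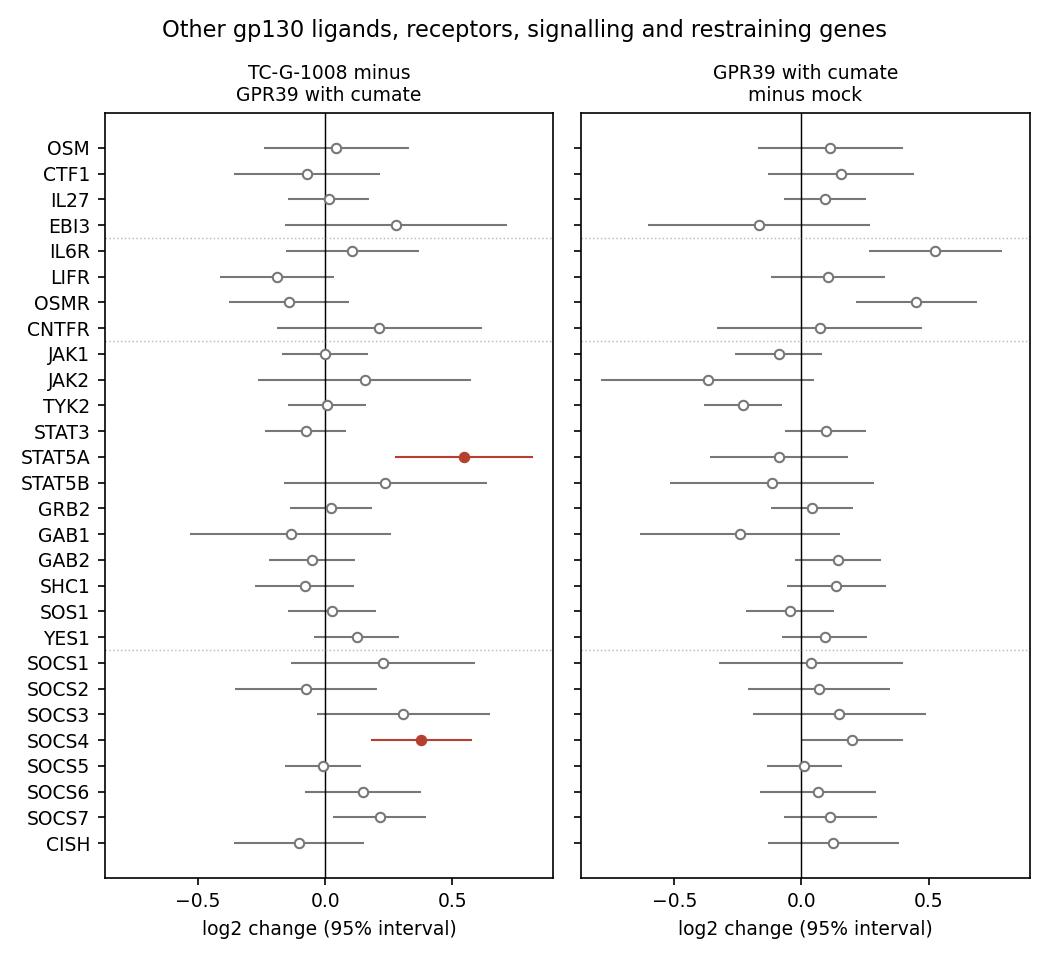
Log2 changes with 95% intervals (x axis) of the tested ligand, receptor, signalling and restraining genes (y axis, 4 blocks parted by dotted lines, from top to bottom) for agonist minus GPR39 and GPR39 minus mock; filled points passed the adjusted p of 0.05, red higher and blue lower. STAT5A at 0.55 and SOCS4 at 0.38 are the filled points, both in agonist minus GPR39.

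Of 14 known STAT3 target genes tested, of 30 listed, 5 rose and 1 fell in agonist against GPR39. That was 42.9% beside 13.3% of named genes (3.64% higher and 9.68% lower), with a median log2 change of 0.18 beside -0.03. This list was chosen with earlier results of these data known, so its shares are a description. PIM2, a survival kinase gene, rose most, to 8.19, 8.23 and 8.30 in agonist, against 7.38, 7.45 and 7.32 in GPR39, and 7.16, 7.12 and 7.02 in mock. Its groups did not overlap, and the rise over GPR39 was 0.86 ± 0.07 (SE, limma adjusted p = 0.00047). CCND1, encoding cyclin D1, rose by 0.62 ± 0.07 and the growth regulator gene MYC by 0.59 ± 0.08 (SE, adjusted p = 0.0020 and 0.0036). The survival gene MCL1 rose by 0.39 ± 0.08 (SE, adjusted p = 0.017), a call lost without any 1 GPR39 array or agonist replicate 3 (adjusted p up to 0.067). VEGFA, an angiogenic factor gene named after its value was seen, rose by 0.49 ± 0.10 (SE, adjusted p = 0.018), a call lost without any 1 GPR39 array (adjusted p up to 0.072). BCL2L1, encoding the survival protein BCL-XL, fell to 4.37, 4.17 and 4.20 in agonist, against 4.95, 4.80 and 5.01 in GPR39 and 4.90, 4.76 and 4.73 in mock, a difference of -0.67 ± 0.09 from GPR39 (SE, adjusted p = 0.0043). As background, several of these genes are also targets of other pathways, such as MYC of ERK signalling and VEGFA of hypoxia.

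In GPR39 against mock 1 of the 14 targets passed, 7.14% beside 1.64% of named genes. It was ICAM1, which encodes an adhesion molecule and is also a target of NF-kB. It read 5.11, 5.17 and 5.05 in agonist, 5.27, 5.54 and 5.55 in GPR39 and 4.42, 4.13 and 4.44 in mock, and rose by 1.12 ± 0.11 in GPR39 against mock (SE, limma adjusted p = 0.0039). In agonist against mock 8 of the 14 rose and 1, BCL2L1, fell, 64.3% beside 21.8% of named genes (7.82% higher and 14.0% lower), with a median of 0.46 beside -0.01. PIM2 was higher by 1.14 ± 0.07, CCND1 by 0.99 ± 0.07, MCL1 by 0.80 ± 0.08, ICAM1 by 0.78 ± 0.11 and MYC by 0.64 ± 0.08 (SE, largest adjusted p = 0.0026, limma). The acute-phase genes of the list, which are known as STAT3 targets of the liver, were dim: LBP, A2M, FGA, FGB, FGG and HP did not pass the filter, with group means between 1.62 and 2.69, nor did STEAP4 and NNMT. SAA1 was tested and differed by 0.05 between agonist and mock (95% interval from -0.13 to 0.24).

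AP-1 is the dimer of FOS and JUN proteins whose motif stands in the IL11 promoter above, and 8 of its 11 listed subunit genes were tested. The list was chosen with earlier results of these data known, and a part of AP-1 in the IL11 levels was not tested. In agonist against GPR39, 6 rose and none fell, with 3.64% of named genes higher and 9.68% lower as background. FOSB rose most, to 8.54, 8.46 and 8.29 in agonist, against 5.72, 5.83 and 5.76 in GPR39 and 5.37, 5.81 and 5.61 in mock, a rise of 2.66 ± 0.12 over GPR39 (SE, limma adjusted p = 2e-05), and its other probe set rose by 1.22 (adjusted p = 0.0040). FOS, JUNB and FOSL1 rose by 1.75 ± 0.11, 1.57 ± 0.12 and 0.85 ± 0.14 (SE, largest adjusted p = 0.0093). The other FOS probe set changed by 0.76 and did not pass (adjusted p = 0.052). JUN rose by 0.41 ± 0.08 (SE, adjusted p = 0.019) and JUND, named after its value was seen, by 0.32 ± 0.06 (SE, adjusted p = 0.0196). Both of these calls were lost without any 1 GPR39 array or agonist replicate 3, and that of JUN also without agonist replicate 1 (adjusted p up to 0.072 for JUN and 0.075 for JUND).

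In GPR39 against mock 4 of the 8 rose and 1 fell, with 1.03% of named genes higher and 0.604% lower as background. FOSL1 read 8.20, 8.37 and 8.11 in agonist, 7.34, 7.38 and 7.42 in GPR39 and 5.24, 5.74 and 5.74 in mock, and rose by 1.81 ± 0.14 in GPR39 against mock (SE, limma adjusted p = 0.00093). ATF3, JUNB and FOSL2 rose by 1.39 ± 0.15, 1.19 ± 0.12 and 0.71 ± 0.11 (SE, largest adjusted p = 0.028). FOS fell by 0.74 ± 0.11 (SE, adjusted p = 0.020), while its second probe set differed by -0.06 (adjusted p = 0.92). The FOSL2 call was lost without mock replicate 2 or any 1 GPR39 array (adjusted p up to 0.116), and the FOS call without mock replicate 2 or 3 or GPR39 replicate 3 (adjusted p up to 0.082). In agonist against mock all 8 tested subunit genes rose, by between 0.52 and 2.83, where 7.82% of named genes were higher and 14.0% lower. Agonist against GPR39 and GPR39 against mock share the GPR39 arrays, so their values are not independent of each other.

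**Figure D3:**
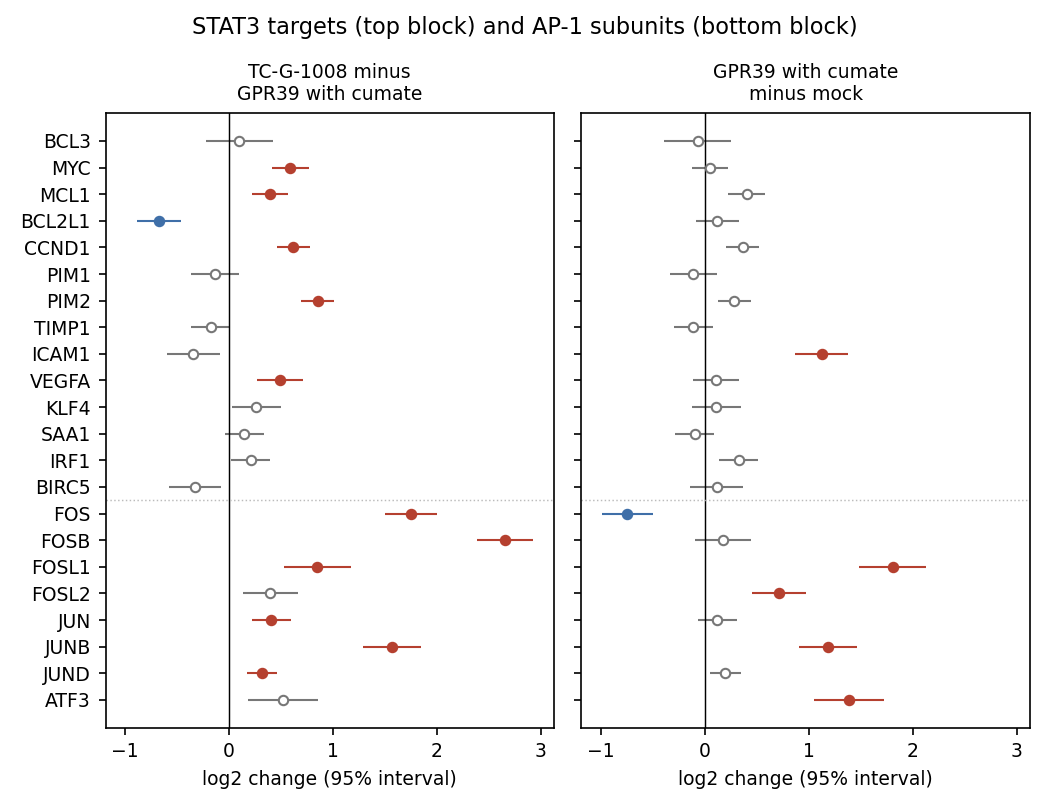
Log2 changes with 95% intervals (x axis) of the 14 tested STAT3 target genes (upper block) and the 8 tested AP-1 subunit genes (lower block) for agonist minus GPR39 and GPR39 minus mock; filled points passed the adjusted p of 0.05, red higher and blue lower. FOSB, at 2.66, leads in agonist minus GPR39, and FOSL1, at 1.81, in GPR39 minus mock.

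Cytokine genes outside the family were compared in the same way. Of 44 listed, 30 had a named probe set and 16 were tested, and this list too was chosen with earlier results known. In agonist against GPR39, 2 rose and none fell, 12.5% beside 13.3% of named genes (3.64% higher and 9.68% lower). They were TSLP, which encodes an epithelial cytokine that acts on dendritic cells, and KITLG, which encodes stem cell factor. TSLP reached 4.75, 5.32 and 5.10 in agonist, against 3.31, 3.73 and 3.67 in GPR39 and 3.29, 3.10 and 3.23 in mock, a rise of 1.49 ± 0.16 over GPR39 (SE, limma adjusted p = 0.0018), while a second TSLP probe set was too dim to test. KITLG reached 7.64, 7.90 and 7.48 in agonist, against 6.84, 6.84 and 6.62 in GPR39 and 6.51, 6.60 and 6.47 in mock, a rise of 0.91 ± 0.12 over GPR39 (SE, adjusted p = 0.0036). For neither did GPR39 minus mock pass, at 0.36 and 0.24 (adjusted p = 0.35 and 0.38). As with IL11, their larger step was the one between agonist and GPR39, a comparison by which they were picked.

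In GPR39 against mock another 2 of the 16 rose, IL24 and IL32, 12.5% beside 1.64% of named genes (1.03% higher). IL24, of the interleukin-10 family, read 3.60, 3.75 and 3.72 in agonist, 3.69, 3.62 and 3.78 in GPR39 and 3.0, 2.87 and 3.11 in mock. It rose by 0.70 ± 0.09 in GPR39 against mock (SE, limma adjusted p = 0.010), a call lost without GPR39 replicate 1 or 3 (adjusted p up to 0.059), and agonist minus GPR39 was -0.01 (95% interval from -0.21 to 0.19). IL32, an inflammatory cytokine gene, read 3.24, 3.50 and 3.50 in agonist, 3.78, 3.56 and 3.69 in GPR39 and 3.0, 2.12 and 2.54 in mock, where 2 of the 3 arrays were at or below the 40th percentile. Its rise of 1.12 ± 0.20 in GPR39 against mock (SE, adjusted p = 0.047) was lost without mock replicate 2 or 3 or any 1 GPR39 array (adjusted p up to 0.161). In agonist against mock these 4 genes rose and none of the 16 fell, 25% beside 21.8% of named genes (7.82% higher). There the IL32 call was lost without mock replicate 3 or agonist replicate 2 or 3 (adjusted p up to 0.075). The other 12 tested, among them TNF, CSF1 and CSF3, did not pass in any comparison, and the agonist minus mock difference of TNF was 0.21 (95% interval from -0.13 to 0.55).

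The genes around IL11 and LIF on their chromosomes were compared next, as neighbours chosen by position alone. The nearest 3 named genes on each side of each cytokine gene made 12, of which 10 were tested. None of the 10 passed in limma in any comparison, with 2 at an unadjusted p under 0.05 in each of the comparisons, and their log2 changes ran from -0.23 to 0.20 in agonist against GPR39, from -0.07 to 0.30 in GPR39 against mock and from -0.20 to 0.27 in agonist against mock. Of all named genes, 13.3%, 1.64% and 21.8% passed in these comparisons, in that order. The 10 neighbours are too few to tell whether they passed less often than other genes, which was not tested. TMEM190, next to IL11, averaged 4.46 ± 0.16 in agonist, 4.37 ± 0.12 in GPR39 and 4.28 ± 0.04 in mock (SD, n = 3 each). COX6B2, on the other side of IL11, and HORMAD2, next to LIF, were below the filter. The antisense genes LIF-AS1 and LIF-AS2 overlap LIF and have no named probe set, and the strand of the LIF probes is unknown here, so transcripts of the antisense genes cannot be told apart from LIF.

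The named genes with profiles most like each cytokine gene were found by the root mean square difference between profiles over the 9 arrays, after each gene's own mean was taken off, among 11915 genes. They were chosen by their values, so these are given without a test. Nearest to IL11 was NRARP, a feedback gene of Notch signalling, at a difference of 0.17. It read 9.26, 9.26 and 9.19 in agonist, 6.79, 6.93 and 6.89 in GPR39 and 6.59, 6.48 and 6.17 in mock, a high agonist group and 2 lower groups close together. USP17L12 and USP17L9P, a gene and a pseudogene of the USP17 deubiquitinase family, followed at 0.25. They had the same values in every array, so they cannot be taken as separate measurements. ZSCAN12P1 came next at 0.30, then NPPC, which encodes C-type natriuretic peptide, at 0.31.

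Nearest to LIF were ACSL4, a long-chain acyl-CoA synthetase gene, at 0.06, MYO1E, a class I myosin gene, at 0.06, ABTB2 at 0.08, SH3RF2 at 0.09 and ARID5A, which encodes an RNA-binding protein known to stabilise IL6 transcripts in the mouse, at 0.09. ACSL4 read 8.70, 8.68 and 8.58 in agonist, 8.44, 8.46 and 8.49 in GPR39 and 7.94, 7.87 and 7.84 in mock, and MYO1E 7.54, 7.56 and 7.50 in agonist, 7.39, 7.44 and 7.31 in GPR39 and 6.83, 6.70 and 6.72 in mock. In these genes too the mock arrays lay below all others and the agonist arrays a little above the GPR39 arrays. IL11 and LIF differed from each other by 0.97, which placed LIF 278th in likeness to IL11 and IL11 11879th in likeness to LIF. The profiles were not scaled, so these ranks depend on the size of the changes as well as on their shape.

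**Figure D4:**
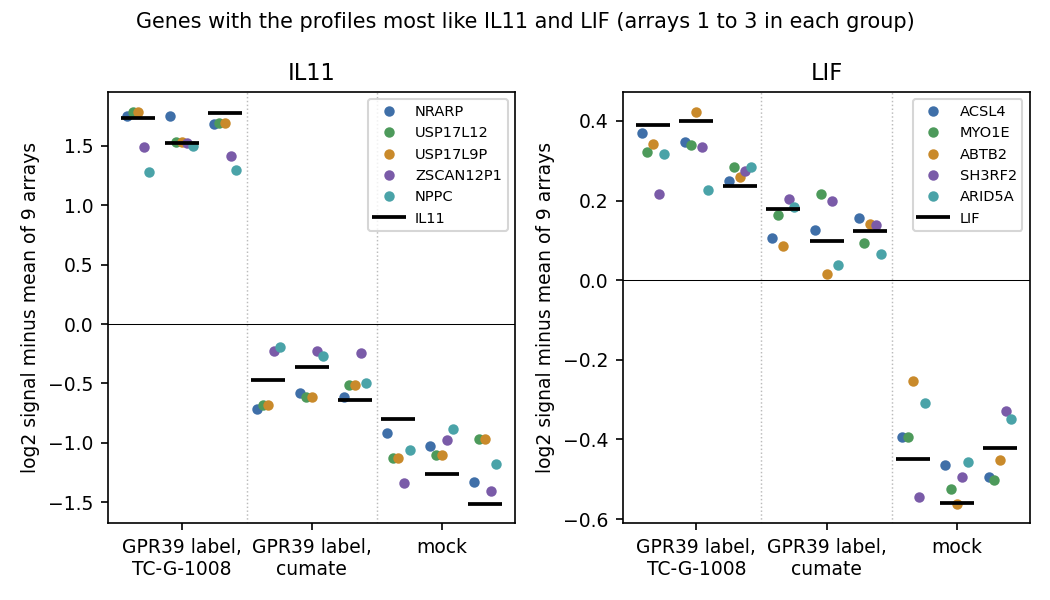
Log2 signal minus each gene's mean over the 9 arrays (y axis) in arrays 1 to 3 of each group (x axis), for IL11 and LIF (black bars) and the 5 genes nearest to each (dots). USP17L12 and USP17L9P have the same values; the dots of IL11 split into a high agonist group and 2 lower groups, those of LIF into a low mock group and 2 higher groups.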

How the data were processed

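Biotin-labelled RNA of 9 samples was hybridised to Affymetrix arrays, per the labels' protocols. The values were taken as log2 signals, as deposited, from their range (0.717 to 13.5). MAS5 is the only tool named, per the submitters' processing notes, and its version, the background correction, the normalization between arrays and the log step are unknown here. No read depth exists for arrays, and their number limits the precision. Of 53617 probe sets, 16098 have 1 gene symbol in the platform annotation, 0 have several, and symbols were updated by Entrez identifier in RefSeq (GRCh38.p14). Unnamed probe sets were tested and not named. The values of 1318 probe sets repeated those of an earlier one in all arrays, and these were kept.

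A probe set was tested if it exceeded the 40th percentile of the array on 3 or more of the 9 arrays, which left 33376. All arrays entered 1 limma fit (version 3.58.1, R 4.3.3; lmFit, eBayes; residual degrees of freedom 6, prior 2.12), two-sided, with Benjamini-Hochberg adjustment over all probe sets tested and a threshold of 0.05. For a gene with several probe sets, the brightest tested was used. The fit was tested on simulated data with independent noise, in which differences between whole arrays were not simulated. The 2 cytokine genes, the lists and the naming rule were chosen with earlier results of these data known. The rule names GPR39, the tested ligand and receptor genes, up to 5 members with the smallest p among those called per other list and comparison, and the 5 nearest profiles of IL11 and of LIF. STAT3, JAK1, TYK2, SOCS3, VEGFA, JUND, TNF, CSF1, CSF3, SAA1, the dim acute-phase genes, marker genes and neighbours were added outside it. Same-numbered arrays of different groups did not deviate together (correlations of deviations from -0.10 to 0.06), so numbers were not taken as pairs. Alternatives changed the filter, normalization, centring, scale, variance model, arrays fitted, the replicate block and single arrays.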

Additional observations from a re-analysis of the deposited data

How the results depend on the processing

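The IL11 and LIF differences kept their direction in all 3 comparisons under all 14 alternatives each. Each is a difference of group means, so changes of the filter, variance model, replicate block or groups fitted could not alter it. Only the alternatives of normalization, centring, scale and single arrays could. Adding 16 to the linear values before log2 lowered IL11 to 1.78 in agonist minus GPR39 and 2.22 in agonist minus mock, and LIF to 0.35 in GPR39 minus mock and 0.48 in agonist minus mock. This follows from the construction, since an added constant shrinks changes of dim probe sets. With single arrays left out, IL11 ran from 2.10 to 2.25, 0.54 to 0.90 and 2.71 to 3.07, and LIF from 0.18 to 0.26, 0.57 to 0.64 and 0.78 to 0.87, in agonist minus GPR39, GPR39 minus mock and agonist minus mock.

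The count of gp130 pathway genes called in agonist against GPR39 was 8, and 4 with the replicate block, and 4 to 7 with single arrays left out. In GPR39 against mock it was 1, with 3 under the filter at the median, 5 with 16 added, 3 with an intensity trend in eBayes, and 1 to 4 with single arrays left out. In agonist against mock it was 13, and 10 to 16 under the alternatives. Over all probe sets, agonist against GPR39 gave 3025 calls, 1819 with the replicate block and 1509 to 2264 with single arrays left out. GPR39 against mock gave 391, with 765 after 16 was added, 670 with the trend, 150 with the replicate block, 190 with only the 2 groups in the fit, and 108 to 1323 with single arrays left out, the highest without mock replicate 1. Agonist against mock gave 5022, and 3133 with only the 2 groups in the fit. Fewer arrays or degrees of freedom explain part of the lower counts by construction, and the cause of the other moves was not tested. Centring on the 75th percentile gave 74.7% of calls higher in GPR39 against mock, where the deposited scale gave 63.9%, and 56.2% against 40.6% in agonist against mock.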
